A study of Mus musculus with 2 samples.

Results

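The genes described here are 9 genes of the DNA methylation machinery, out of 21321 protein-coding genes with a start site on chromosomes 1 to 19 and X. They are the methyltransferase genes Dnmt1, Dnmt3a and Dnmt3b with the maintenance partner Uhrf1, the erasers Tet1, Tet2 and Tet3, and the readers Mbd1 and Mbd2. They are a list of genes that write, erase or read cytosine methylation, drawn up because NRF1 binding is sensitive to that mark, and the rule for the list uses no binding value. Chromatin bound by NRF1, a transcription factor of GC-rich promoters, was immunoprecipitated and sequenced from CH12.LX, an immortalized mouse B-cell lymphoma line of strain B10.H-2aH-4bp/Wts labelled female. There are 2 biological replicates in 1 group, from separate biosamples of the line, with no treated or mutant cells. The values therefore describe where NRF1 sat at these genes, and no test between groups was possible. No expression was measured, so the labelled cell type could not be checked against marker genes.

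In mammals methylation falls mostly on the cytosine of CpG pairs. Dnmt3a and Dnmt3b set it on unmethylated DNA, and Dnmt1 copies it to the new strand after replication, guided by Uhrf1, which binds DNA methylated on one strand. TET enzymes oxidise methylcytosine and so start its removal, and MBD proteins such as Mbd1 and Mbd2 bind methylated CpG and bring repressor complexes. The NRF1 site is built around CpG pairs, and methylation of these is known to block NRF1 binding.

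The site was searched as its 3 written forms, GCGCATGCGC, which reads the same on both strands, GCGCACGCGC, and its reverse complement GCGCGTGCGC. The DNA under promoter summits whose best match had at most 2 mismatches is shown first, so that the matches can be read side by side. Mbd2, with a best match of 2 mismatches, is not shown. Each run below is the 101 bases around an mm9 peak summit, from the NCBIM37 genome on the strand of the gene, and the capitals mark the best match to the NRF1 site within 50 bp of the summit. Dnmt1 has a pair of summits, 20 and 21 bp from an exact site with 2 CpG pairs each.
Dnmt1, upstream summit, chr9:20757320-20757420, minus strand: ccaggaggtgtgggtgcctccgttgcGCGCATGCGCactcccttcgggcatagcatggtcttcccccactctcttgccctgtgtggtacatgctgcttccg
Dnmt1, downstream summit, chr9:20757019-20757119, minus strand: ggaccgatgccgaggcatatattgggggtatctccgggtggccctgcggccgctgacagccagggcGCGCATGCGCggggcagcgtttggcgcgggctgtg
Uhrf1, chr17:56443328-56443428, plus strand: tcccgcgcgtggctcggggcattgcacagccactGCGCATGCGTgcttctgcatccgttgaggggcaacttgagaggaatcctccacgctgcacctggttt
Tet3, inner summit, chr6:83390802-83390902, minus strand: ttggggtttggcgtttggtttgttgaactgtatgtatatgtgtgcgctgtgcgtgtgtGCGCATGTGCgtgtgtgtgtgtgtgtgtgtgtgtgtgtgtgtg
Dnmt3a, chr12:3806337-3806437, plus strand: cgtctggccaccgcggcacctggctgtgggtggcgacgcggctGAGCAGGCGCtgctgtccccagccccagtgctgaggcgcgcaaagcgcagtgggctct

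With positions counted from 1 at the 5′ end of the site as printed, the Uhrf1 match differed from the exact form by C10T and kept 2 CpG pairs. The inner Tet3 match differed by C8T, which left 1 CpG pair, and its window ran into a long stretch of alternating g and t. The Dnmt3a match had 2 mismatches and 1 CpG pair. These windows overlapped no exon of their gene in GENCODE vM1. The other Tet3 summit lay at the start site. The 250 bases before that start are shown from the RefSeq promoter table (GRCm38.p6), with capitals for a run of 4 CpG pairs 1 mismatch away from 2 forms of the site (A5G or T6C). The run begins 23 bp before the start, and the optimal summit was 16 bp from its centre.
Tet3, start-site promoter, chr6:83441679-83441928, minus strand: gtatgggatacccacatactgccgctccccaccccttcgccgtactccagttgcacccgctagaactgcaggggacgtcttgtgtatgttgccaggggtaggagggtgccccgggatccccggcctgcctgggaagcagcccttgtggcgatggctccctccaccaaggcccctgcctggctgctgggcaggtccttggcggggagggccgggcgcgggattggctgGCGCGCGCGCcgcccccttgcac

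Peaks were taken from the authors' optimal set on mm10, 17547 peaks on these chromosomes selected by irreproducible discovery rate (IDR), which scores whether a peak ranks alike in separate samples. The signal of a peak is the value the authors' caller gave it, on a scale with no stated unit, and is set only against other peaks of the same list. A gene was counted as occupied when a summit lay within 1000 bp of its start. With the outer end of the RefSeq gene as the only start, 5 of the 9 genes were occupied (Dnmt3b, Uhrf1, Tet2, Mbd1 and Mbd2), a share of 55.6% where all protein-coding genes had 36.8%. Several of these genes start transcription from more than 1 place, and with any RefSeq start allowed 8 of 9 were occupied, all but Tet1, where all genes had 39.9%. Dnmt1, Dnmt3a and Tet3 accounted for the difference, since their peaks lay at inner starts. The choice of any start was added after the values were seen. Genes with more starts had more windows in which to be counted, and this was not adjusted for. Dnmt3a has 4 RefSeq starts, Dnmt1 has 3, and Mbd1 and Mbd2 have 1 each. The 21321 genes have 31996 starts in all. The distances nearest to the limit on the outer start were 877 bp for Tet2, inside it, and 1160 bp for Tet3, outside it.

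The count varied with the peak set and the window. It was 6 in the conservative set (35.5% of all genes), 4 with the 8773 optimal peaks of higher signal (26.9%), 2 with summits within 500 bp (33.7%) and 6 within 2000 bp (39.2%). The 17547 highest peaks of replicate 1 alone gave 6 (37.9%), as did those of replicate 2 alone (36.6%), with the same genes in both, Tet3 joining the 5 above. The mm9 peak set with GENCODE starts gave 6 (33.1%), namely Dnmt1, Dnmt3a, Uhrf1, Tet2, Tet3 and Mbd2. It allowed any GENCODE start of a gene, and the number of starts was not adjusted for.

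**Figure D1:**
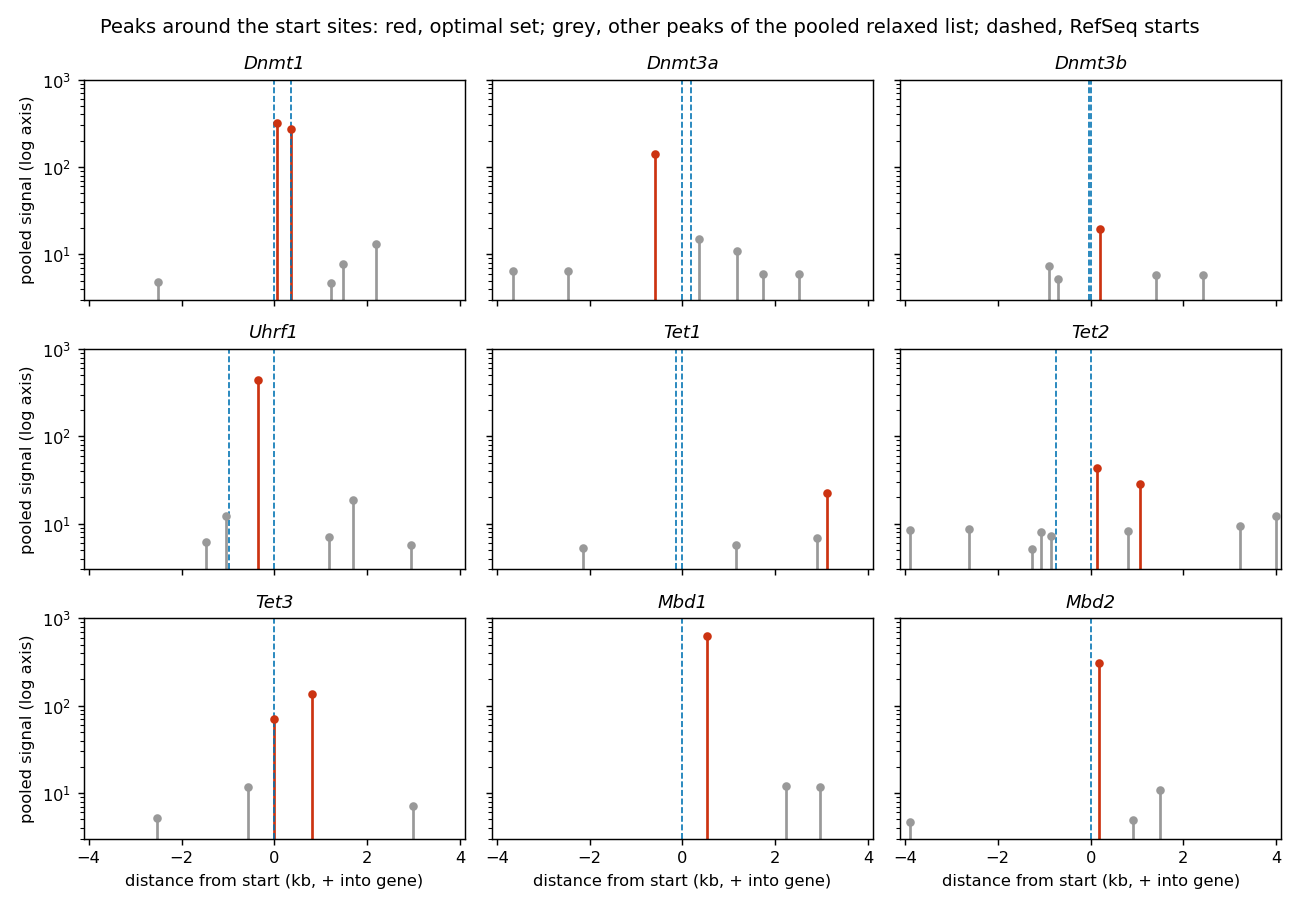
Pooled signal of peaks (log axis, in the units of the authors' caller) against distance in kb from the start nearest each gene's strongest start-site peak, for the 9 genes, positive into the gene. Red stems are peaks of the optimal set, grey stems other peaks of the pooled relaxed list, and dashed lines RefSeq starts. Dnmt1, Tet2 and Tet3 each show a pair of red stems, and the only red stem of Tet1 lies 3113 bp inside the gene.

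The maintenance genes Dnmt1 and Uhrf1 carried strong peaks. At Dnmt1 the summits lay at chromosome 9, 20952922 (peak 20952743 to 20953108, mm10) and 20952614 (20952441 to 20952784), 308 bp apart. The first stood 57 bp inside the RefSeq start at 20952979, with a pooled signal of 322, replicate 1 at 168 and replicate 2 at 166. The second stood 9 bp inside the start at 20952623, with a pooled signal of 272, replicate 1 at 135 and replicate 2 at 139. These starts lie 6909 and 7265 bp inside the outer end of the gene, which marks the start known for the oocyte form of the enzyme. At that outer start the pooled relaxed list, which also holds background, had a peak of 7.21 only, at rank 96711 of 299930. The exact sites are 341 bp apart on mm9. On mm10 they lie at 20952941 to 20952950 and 20952600 to 20952609, which puts them 24 and 10 bp from the nearest optimal summit. Of the 9 genes, Dnmt1 is the only one with an exact site in the windows searched, and 3.58% of 17274 genes with RefSeq promoter sequence hold one within 250 bp before to 50 bp after a start. A further optimal peak of 50.3, past the other end of Dnmt1, lay 94 bp from the start of Eif3g, a translation initiation factor gene.

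The Uhrf1 peak had its summit at chromosome 17, 56303957 (peak 56303800 to 56304124, mm10), between both RefSeq starts of the gene, 620 bp after the outer one and 356 bp before the inner one. Its pooled signal was 447.5, with 219 in replicate 1 and 226 in replicate 2, above 88.8% of optimal peaks. The replicate summits were 3 bp apart. A much weaker peak of 12.2, 69 bp before the outer start, was in the conservative set and not in the optimal one. Such peaks are common in these sets: of 15936 conservative peaks, 2514 (15.8%) are not in the optimal set. The next optimal peak, of 29.2, lay beyond the end of Uhrf1 and 209 bp from a start of Kdm4b, a histone demethylase gene.

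The de novo genes Dnmt3a and Dnmt3b differed widely in signal. Dnmt3a carried a narrow peak of 140.5 at chromosome 12, 3806305 to 3806477 (173 bp wide), 583 bp before the RefSeq start at 3806980. Replicate 1 gave 91.5 and replicate 2 47.9 (69.7 ± 30.9, SD, n = 2), a wide spread, though the peak was among the 17547 highest of each (ranks 3974 and 4895). At the inner start at 3891744, known to give the short form Dnmt3a2, the nearest pooled relaxed peak reached 9.57, and no optimal peak lay within 1000 bp of it. The strongest peak near Dnmt3a stood apart from any start: 408 at 3791889 to 3792170, 9536 bp before the outer end of the gene, with 225 in replicate 1 and 183 in replicate 2. No RefSeq gene lies within 2000 bp of that summit, and the mm9 set, with GENCODE starts, has a peak of 1010 at a distance of -13991 bp from the first start of Dnmt3a. Its best match to the site within 50 bp of the summit had 2 mismatches.

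Dnmt3b had the weakest start-site peak of the genes, 19.8 at chromosome 2, 153649473 to 153649816, 196 bp inside the RefSeq start. Replicate 1 gave 10.1 and replicate 2 10.8, just above the signals of 9.83 and 9.62 at rank 17547 of those lists. The replicate summits were 148 bp apart, so the position is poorly set. The rank score of the peak was 881, where 11851 of 17547 optimal peaks have the highest score of 1000. The mm9 set had no peak nearer than 16670 bp to a Dnmt3b start.

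The TET genes carried moderate to absent peaks. Tet3 had a pair of summits 822 bp apart at its inner start (83441678, chromosome 6). The one at the start, 2 bp before it, reached 70.85, with 40.6 in replicate 1 and 28.9 in replicate 2. The one 820 bp inside reached 138, with 68.0 in replicate 1 and 69.0 in replicate 2, and was 145 bp wide with replicate summits 3 bp apart. A lncRNA gene, B230319C09Rik, lies beside the same start (83441755 to 83448322). A further peak of 57.4 lay 1160 bp inside the outer end of Tet3. It had 36.7 in replicate 1 and 17.0 in replicate 2. A peak of 22.3 at 83456347 to 83456690, 689 bp inside the outer end, was in the conservative set and not in the optimal one, and it is the peak that adds Tet3 to the conservative count.

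Tet2, often mutated in blood cancers, carried a weaker peak of 43.2 at chromosome 3, 133544087 to 133544430, 131 bp inside the RefSeq start at 133544390. Replicate 1 gave 19.9 and replicate 2 32.2, and the replicate summits were 165 bp apart. Relaxed peaks were dense around Tet2: 102 peaks of the pooled relaxed list lay within 100 kb of its outer start, more than at 97.8% of genes, where the median gene had 38 (quartiles 18 and 56). The part of this density in the Tet2 peak was not tested. Dnmt1 had 88 such peaks, and the other genes had between 34 and 70. The weak optimal peaks inside Tet2, of 16.2 and 8.83 at about the same place, were not in the conservative set, while the one of 28.9 at 1074 bp inside the RefSeq start was.

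Tet1 had no optimal peak within 1000 bp of a start. The relaxed lists had none there either: the nearest summit stood 1145 bp from a start in the pooled list, 1072 bp in replicate 1 and 1081 bp in replicate 2. Its nearest optimal peak, of 22.4, lay 3113 bp inside the gene at chromosome 10, 62884039 to 62884382, with 9.94 in replicate 1 and 12.1 in replicate 2. The lncRNA gene Gm51805 spans the same place, and the conservative set has a peak of 6.91 there, 2905 bp inside Tet1. The mm9 set had no peak within 10000 bp of the gene. Binding below the authors' limits was not detectable here, and the depth is unknown.

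The readers Mbd1 and Mbd2 were both occupied. Mbd1 carried the strongest peak of the 9 genes, 626 at chromosome 18, 74267917 to 74268348, with its summit 532 bp inside the gene. It ranked 246 of 17547, with 316 in replicate 1 and 313 in replicate 2 (315 ± 1.98, SD, n = 2) and summits 3 bp apart. The mm9 set, however, had no peak nearer to the Mbd1 start than 52120 bp. Such gaps were uncommon at strong promoters: of 441 genes with a promoter peak among the 500 strongest, 31 (7.03%) had no promoter peak in the mm9 set. Mbd2 had a peak of 313 at 70568212 to 70568557, 177 bp inside the gene, with 174 in replicate 1 and 141 in replicate 2. The lncRNA gene Gm31671 overlaps the start of Mbd2 there.

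**Figure D2:**
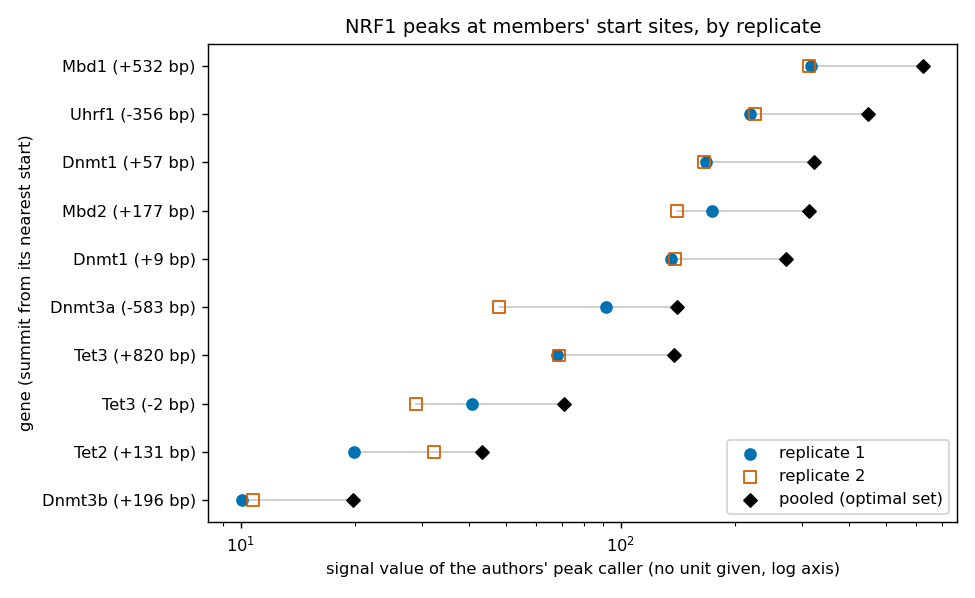
Signal value (log axis, no unit given) of the 10 optimal peaks within 1000 bp of a start of 8 of the genes, with filled circles for replicate 1, open squares for replicate 2 and diamonds for the pooled replicates, which are called on a scale of their own. Replicate signals of Dnmt1, Uhrf1 and Mbd1 nearly coincide, and those of Dnmt3a (91.5 and 47.9) lie farthest apart.

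Set in order by the strongest start-site peak, the pooled signals were 626 for Mbd1, 447.5 for Uhrf1, 322 for Dnmt1, 313 for Mbd2, 140.5 for Dnmt3a, 138 for Tet3, 43.2 for Tet2 and 19.8 for Dnmt3b. Neighbours Dnmt1 and Mbd2 overlap in their replicate values, and so do Dnmt3a and Tet3. In share of optimal peaks with a lower signal this ran from 98.6% for Mbd1 to 20.8% for Dnmt3b. The median over the 5 genes occupied at the outer start was 83.8%, and over all 8 occupied genes it was 79.7%. Signal of all optimal peaks within 1000 bp of any start had a median of 58.95 (quartiles 28.1 and 316, n = 9367).

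**Figure D3:**
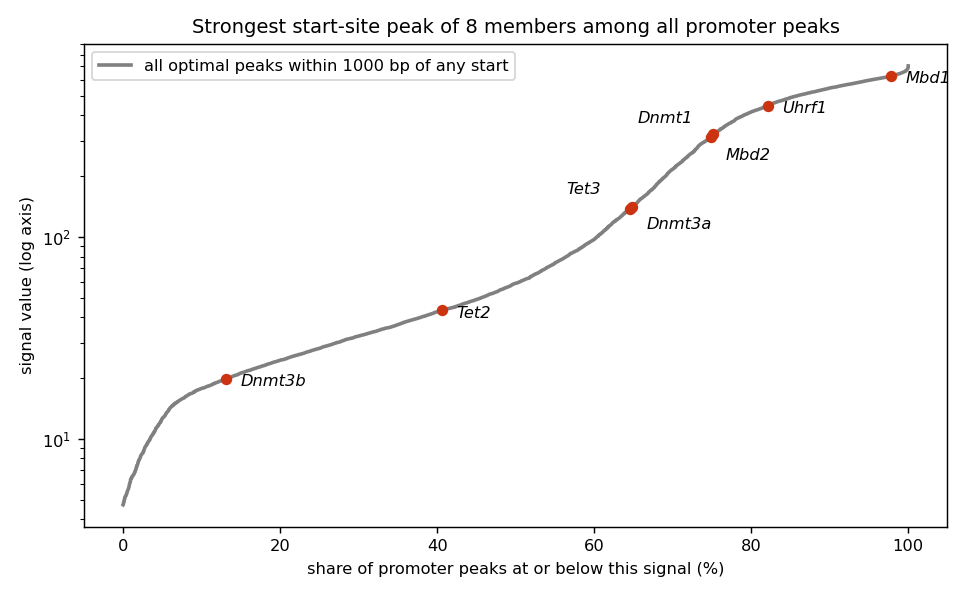
Signal (log axis) of the 9367 optimal peaks within 1000 bp of any start, against the share of these peaks at or below that signal (%), as a grey line, with the strongest such peak of 8 genes in red. Mbd1 (626) stands near the top, Dnmt1 (322) and Mbd2 (313) lie side by side, and Dnmt3b (19.8) is near the bottom.

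How well the replicates placed a summit went with its signal. Over all promoter peaks matched in both replicates the median distance between replicate summits was 59 bp for the weakest 2313 (signal up to 28.8), 28 bp and 11 bp in the next classes, and 5 bp for the strongest 2312 (signal from 326). Among the genes here the distances were 3 bp for Mbd1, Uhrf1 and the inner Tet3 summit, 11 and 36 bp for Dnmt1, 13 bp for Mbd2, 17 bp for the other Tet3 summit, 20 bp for Dnmt3a, 148 bp for Dnmt3b and 165 bp for Tet2. The peaks of Dnmt3b and Tet2, the downstream Dnmt1 peak and the Tet3 peak at the start had the commonest width of 344 bp, which 72.4% of optimal peaks share.

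**Figure D4:**
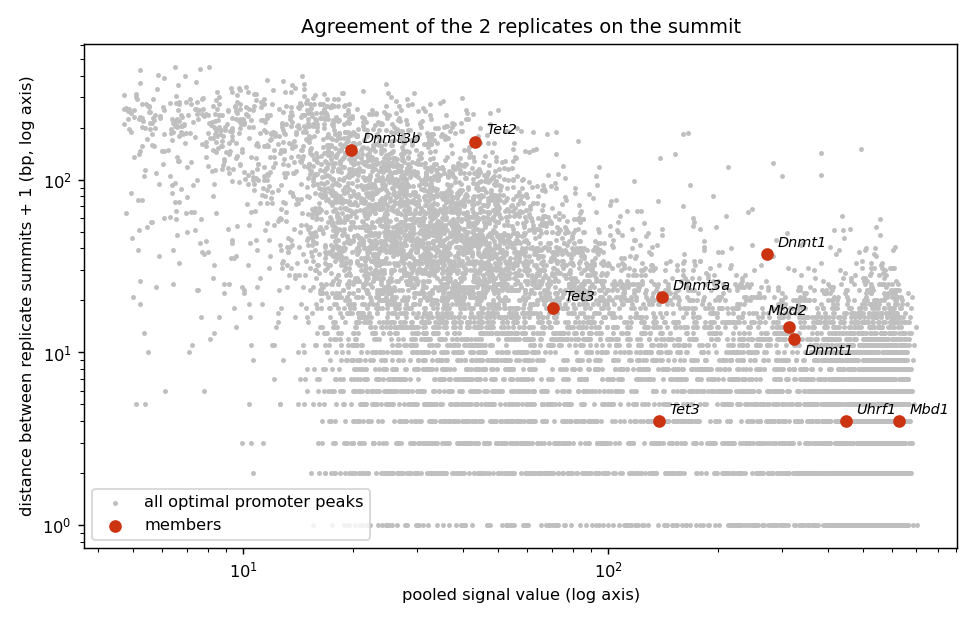
Distance in bp between the summits of replicates 1 and 2, plus 1, against pooled signal (both log axes), for all optimal promoter peaks in grey and the 10 of these genes in red. Dnmt3b and Tet2 lie at the wide end (148 and 165 bp), and Mbd1, Uhrf1 and the inner Tet3 summit at 3 bp.

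CpG content and signal did not run in the same order over these genes. The RefSeq window of 300 bp around the Tet2 start, with a peak of 43.2, held 57 CpG pairs, the most of the windows of these genes. The window of the Dnmt1 start at 20952979, beside the peak of 322, held 12, and that of its other start, beside the peak of 272, held 33. The median over 21045 such windows was 13 (quartiles 4 and 25). Dnmt3b held 30 with a peak of 19.8, the inner Uhrf1 start 33, Tet3 22 and Tet1 17. Dnmt3a held 46 and 47 at its starts at 3806980 and 3807160, and its outer start had no such window. Within 1 mismatch, 3 of the 7 genes with such windows held a site (Dnmt1, Tet2 and Tet3), where 14.6% of all genes did, and the Tet2 match lay 174 bp from the nearest summit. The windows of Mbd1 and Mbd2 were not used here. On mm9, within 500 bp of any GENCODE start, 7 of the 9 genes held a site within 1 mismatch, where 5546 of 22208 genes did. In this count and the RefSeq count, genes with more starts had more sequence searched, and this was not adjusted for. Dnmt1 held an exact one, Dnmt3a, Dnmt3b, Uhrf1, Tet2, Tet3 and Mbd1 had a best match with 1 mismatch, Mbd2 with 2 and Tet1 with 3. Under mm9 summits, 8.80% of 11216 held an exact site, 34.0% one with up to 1 mismatch and 62.8% one with up to 2. For the 7369 of them within 1000 bp of a start, these shares were 10.7%, 36.8% and 65.4%. Of the 6 genes with an mm9 promoter peak, Dnmt1 held an exact site there, Uhrf1 and Tet3 one with 1 mismatch, Dnmt3a and Mbd2 one with 2, and Tet2 none within 2.

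The order within the mm9 set differed in places. Dnmt1 led there, with signals of 3477 at the upstream summit (rank 801 of 11216) and 1054 at the downstream one. Uhrf1 followed at 1112, Mbd2 at 613, Tet3 at 229 and 95.4, Dnmt3a at 219 and Tet2 at 68.2. A second Tet2 peak, 1074 bp inside the start, had 36.98. Further mm9 peaks of 89.4 near Dnmt1 and 47.5 near Uhrf1 lay outside those genes. These signals are on another scale than those on mm10 and were compared only with each other.

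A wider list of 31 genes that act with or around the mark was read the same way. At the outer start 17 were occupied (54.8%, against 36.8% of all genes) and at any start 20 (64.5%, against 39.9%). With the optimal peaks of higher signal alone 10 were (32.3%, against 26.9%), a share nearer to that of all genes. Counted by role at the outer start, 5 of 7 other genes listed as methyl-CpG readers were occupied. That role is the heading of the list, and binding to methylated CpG was not checked for each gene. The 6 listed genes for removal and repair of modified cytosine were all occupied. Of 8 maintenance and targeting partners 3 were occupied, of 5 genes for CXXC proteins, which bind unmethylated CpG, 2, and of 5 genes for supply of methyl donor or cofactor 1. The strongest were Mbd4, a glycosylase for mismatched thymine (656), Mbd3 of the NuRD repressor complex (557), Mbd6 (540), Cxxc1 of the SET1 complex (418.5), the corepressor gene Trim28 (389) and Mbd5 (299.8). Their replicate values were 327 in replicate 1 and 331 in replicate 2 for Mbd4, 277 and 279 for Mbd3, and 154 and 145 for Mbd5. Tdg, the glycosylase that removes oxidised methylcytosine, had 255.5. The other 5 occupied genes for removal and repair, Smug1, Apex1, Gadd45a, Gadd45b and Gadd45g, lay between 19.4 and 35.7. Of these 6 genes, only Tdg was occupied with the optimal peaks of higher signal. In the mm9 set Tdg, Apex1 and Gadd45g were occupied, and in the conservative set all but Gadd45g. Unoccupied at the outer start were Dnmt3l, Usp7, Uhrf2, Zfp57, Dppa3, Zbtb33, Zbtb4, Cxxc4, Cxxc5, Kdm2a, Mat2a, Mat2b, Idh1 and Idh2. Of these, Usp7 (48.97), Mat2b (39.7) and Idh2 (13.8) had a peak at another start.

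The genes Mbd1 to Mbd6, named for the methyl-CpG-binding domain, were all 6 occupied at the outer start, with signals between 299.8 and 656 and a median of 548. A signal of at least the lowest of these was found at 2514 of 21321 genes (11.8%). That limit was taken from the 6 genes themselves, so all 6 reach it by construction. In the mm9 set 3 of the 6 had a promoter peak (Mbd2, Mbd5 and Mbd6), where 33.1% of all genes had one. Mbd1, Mbd3 and Mbd4 had none. Of 1727 genes with a promoter peak among the 2000 strongest optimal peaks, 121 (7.01%) had none in the mm9 set. The reason for the gaps at these MBD genes was not tested. The MBD grouping was made after the values were seen.

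**Figure D5:**
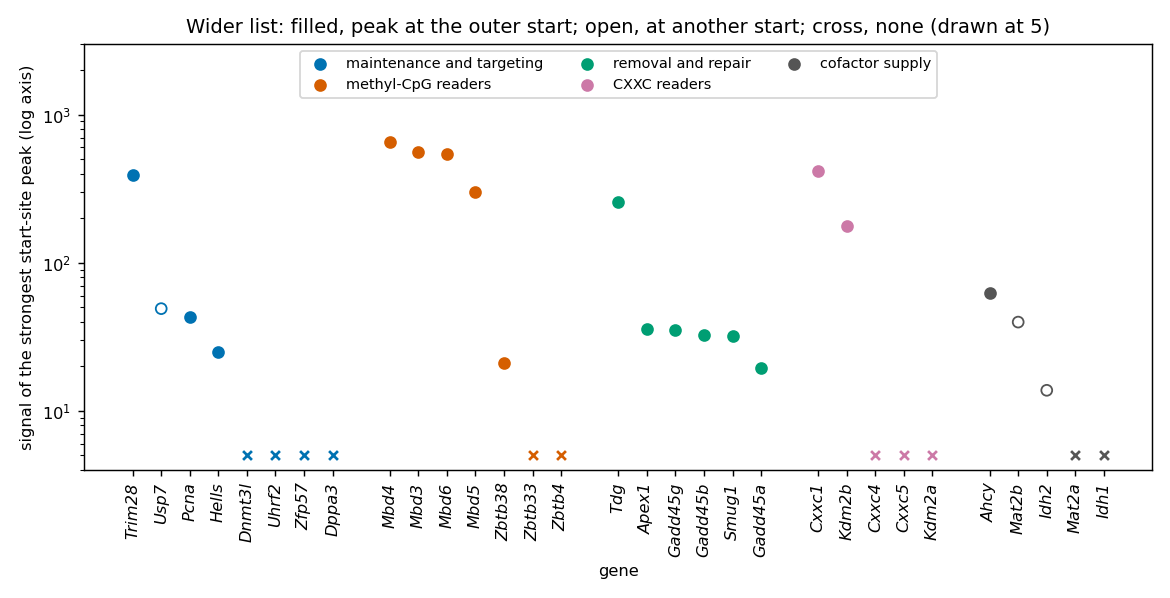
Signal (log axis) of the strongest optimal peak within 1000 bp of a start for the 31 genes of the wider list, coloured by role. Filled points have the peak at the outer start, open points at another start only, and crosses drawn at 5 have none. Mbd3, Mbd4, Mbd5 and Mbd6 lie between 299.8 and 656, above most other genes of the list.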

How the data were processed

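Peak lists were read as the authors deposited them. Their accompanying text files describe relaxed mm10 lists, which include background, for replicate 1, replicate 2 and both pooled, called against controls. Conservative and optimal sets came from those lists through IDR. The mm9 set was made from both replicates with no control named among its inputs. The sources used here name no aligner, caller, threshold or read number, and depth is therefore unknown. The deposited signal value ranks peaks within 1 list only, the deposited score comes from IDR, and a deposited offset places each summit.

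Outer starts came from the RefSeq gene table (GRCm38.p6), with the strand from the RefSeq promoter table for 17274 genes and from GENCODE vM1 by symbol or synonym for 3650 and 397. A further 310 genes without a strand were left out. Of 14735 genes in both sources, 14695 had the same strand. Replicate signals are those of the relaxed peak that overlaps an optimal peak by at least 1 bp and has the nearest summit. No coordinate was converted between builds. Sequence came from NCBIM37 and RefSeq. Distances and site matches were checked on simulated data. Python 3.11.15, pandas 2.3.3, NumPy 2.4.6 and pysam 0.24.0 were used.

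All 9 genes are named, with every selected peak within 10000 bp, and from the wider list the 6 strongest occupied genes and the unoccupied ones. The 31 genes are the list after some were taken out, which are not reported here. Tdg, the 5 other removal and repair genes and the MBD grouping were named after their values were seen. The genes and lists were chosen with earlier results of these data known. No test was made, and peaks are not replicates. The conservative set, other windows, each replicate alone, other starts and other site definitions were tried.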

Additional observations from a re-analysis of the deposited data

How the results depend on the processing

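The count of 5 occupied genes was 2 with summits within 500 bp of the outer start, where Uhrf1, Tet2 and Mbd1 dropped out, and 8 with any RefSeq start. It stayed between 4 and 6 with the conservative set, the peaks of higher signal, the 2000 bp window and the mm9 set, and was 6 with either replicate left out. The wider list gave 17 genes, and 10 with the peaks of higher signal (32.3%, against 26.9% of all genes). It gave 17 with either replicate left out, and between 14 and 20 otherwise. The median share of optimal peaks below the occupied genes' peaks was 83.8%, and it was 65.95% in the conservative set, 74.1% among promoter peaks only and 79.7% with any start. For the same 5 genes and optimal peaks, ranked by the signal of 1 replicate, it was 84.2% with replicate 1 and 82.98% with replicate 2. Those peaks were still selected with both replicates, so neither value shows the median with a replicate left out. Exact sites were found at 1 gene, Dnmt1, both in RefSeq windows and under mm9 summits. Sites with up to 1 mismatch were found at 3 in RefSeq windows (Dnmt1, Tet2 and Tet3). Under mm9 summits they were also found at 3, but not the same ones (Dnmt1, Uhrf1 and Tet3). Within 500 bp of GENCODE starts on mm9 they were found at 7. The mm9 counts with up to 1 mismatch were added after the values were seen. These changes follow from the windows, sets and starts used. No paired analysis was possible because the replicates form 1 group. Depth is not known, so weak or missing peaks (Tet1, Dnmt3b) cannot be read as absence of binding.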
